A study of Mus musculus with 24 samples.

Results

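Elastin and the genes that assemble it into elastic fibres were followed in mouse lung during exposure to ozone. The set was a list of 10 genes: elastin itself (Eln), the microfibril genes Fbn1 and Mfap5, the fibulins Fbln1, Fbln2 and Fbln5, the cross-linking oxidases Lox, Loxl1 and Loxl2, and the matricellular gene Thbs1. Members were the probe sets whose gene name in the platform annotation was 1 of these names alone. That gave 14 probe sets for 8 of the 10 genes, and all 8 were among the 8008 genes tested. Fbn1 had no probe set under its single name and is not analysed here. The probe set of Loxl2 is shared by name with another gene, so it was not used.

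The arrays came from the left lung lobe of 24 male mice, 3 in each of 8 groups, with 1 Affymetrix array per mouse. C3H/HeOuJ mice (OuJ) carry a sufficient Tlr4, the receptor for bacterial lipopolysaccharide, and C3H/HeJ mice (HeJ) carry a dominant negative one. Each strain had mice kept in air and mice given ozone, which is an oxidant gas, for 6, 24 or 48 h, and the stated aim was to follow lung transcripts under ozone when Tlr4 is deficient. The mice's age and the ozone concentration are unknown here, and the strain comparison is one between whole strains rather than littermates.

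Elastic fibres give the lung its recoil. Cells secrete tropoelastin, the product of Eln, onto a scaffold of microfibrils made of fibrillins with glycoproteins such as that of Mfap5, and fibulins carry it there. Lysyl oxidases such as those of Lox and Loxl1 then cross-link it, and fibroblasts and smooth muscle cells of airways, vessels and alveolar ducts are known sources of these proteins.

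Values are the deposited signals or log2(signal + 16), and changes are differences of group means of the latter, ± SE, from a limma model over all 24 arrays with 3 arrays per group. A gene was called, and is said to have risen or fallen, at a Benjamini-Hochberg adjusted p under 0.05 over the 8008 genes. Median signals of the arrays lay between 200.1 and 229.4, and their number limits the precision. By their codes in the labels the mice form 3 series: series 3 holds all air and 6 h mice, series 10 the OuJ and series 13 the HeJ mice at 24 and 48 h. At 24 and 48 h the change from air, and its strain difference, therefore cannot be told apart from the series, whereas 6 h against air and 48 against 24 h lie within 1 series. The 5' to 3' signal ratio of the Gapdh control, a measure of RNA quality, was 0.781 to 1.03 in OuJ and 0.497 to 0.944 in HeJ arrays. Its HeJ mean was 0.558 for air, 0.753 for 24 h and 0.593 for 48 h, and its part in the results below was not tested. The lung markers were high in every array, with signals of at least 24983 for Scgb1a1 and 27216 for Sftpc.

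Of the 8 measured genes 3 moved. Thbs1 rose in both strains at 24 and 48 h, Eln rose in HeJ at 24 and 48 h by its brighter probe set and in both strains by its dimmer one, and Lox rose in HeJ at 24 h. Fbln1, Fbln2, Fbln5, Loxl1 and Mfap5 were not called in any comparison. In OuJ 1 of 8 members was called at 24 h, where 6.57% of all genes were, and 1 of 8 at 48 h, where 7.9% were. In HeJ 3 of 8 were called at 24 h against 7.11% of all genes, and 2 of 8 at 48 h against 12.1%. All of these calls were rises, and the genes called higher were 3.16% in OuJ at 24 h, 3.7% in OuJ at 48 h, 3.15% in HeJ at 24 h and 5.67% in HeJ at 48 h. The median change over the 8 members was -0.01 in OuJ at 24 h and -0.07 at 48 h, and -0.02 in HeJ at 24 h and 0.23 at 48 h. Over all genes those medians lay between -0.03 and -0.02.

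At 6 h no member was called by limma in either strain, against 0.137% of all genes (11 genes) in OuJ and 0.0375% (3 genes) in HeJ. At an unadjusted p under 0.05 there were 2 members of 838 genes in OuJ and 3 members of 723 genes in HeJ. Leaving out 1 array moved these totals of called genes to between 3 and 128 in OuJ and between 0 and 59 in HeJ. At the later times in OuJ it gave 243 to 415 in place of 526 (24 h) and 286 to 540 in place of 633 (48 h). In HeJ it gave 335 to 628 in place of 569 (24 h) and 609 to 694 in place of 970 (48 h). The background shares thus move when 1 array is left out. In OuJ at both later times and in HeJ at 48 h every such run gave fewer genes. Each run has 1 array less, so a smaller group and a particular array cannot be told apart there.

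Counted by arrays alone, 2 of the 8 members in OuJ had all 3 ozone arrays above all 3 air arrays at each time, against 7.94%, 11.2% and 12.5% of all genes at 6, 24 and 48 h. All arrays below air were found for 0, 0 and 1 members, against 9.03%, 15% and 17.3%. In HeJ the members above air were 1, 3 and 3, against 5.38%, 10.7% and 13.7%, and those below were 0, 1 and 2, against 7.06%, 13.6% and 17.1%. From 24 to 48 h, 0 members lay wholly above and 2 below in OuJ (7.31% and 7.19% of all genes), and 1 above and 2 below in HeJ (12.3% and 11.6%). Lung tissue was measured in bulk, so more cells of a type and more RNA per cell cannot be told apart in any of these values.

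**Figure D1:**
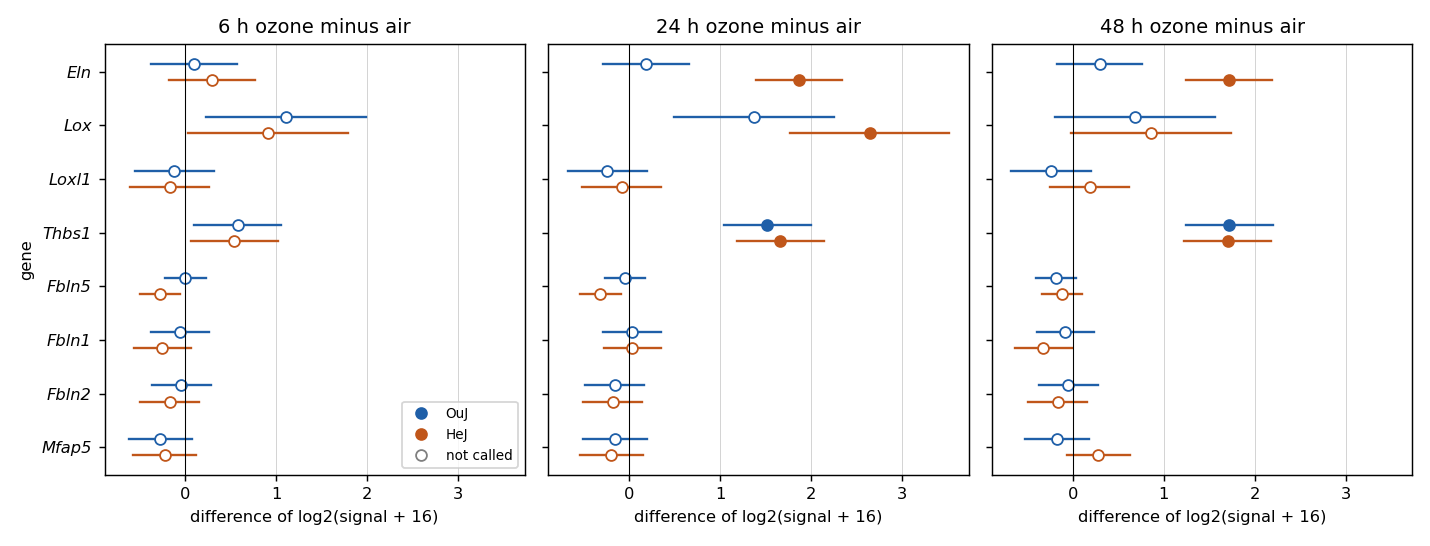
Log2 change from air (horizontal axis, difference of log2(signal + 16)) for each of the 8 measured genes at 6, 24 and 48 h in OuJ and HeJ, with 95% confidence intervals from limma, n = 3 arrays per group; open symbols were not called. Eln stands at 1.87 and 1.71 in HeJ at 24 and 48 h and at 0.18 and 0.29 in OuJ, Lox is highest in HeJ at 24 h, and Thbs1 lies between 1.52 and 1.72 at 24 and 48 h in both strains.

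Elastin was read by a pair of probe sets that are annotated to the same transcript record. The brighter one had the higher mean and was used for the gene. Its signals in OuJ were 1432, 1334 and 871 in air and 1718, 869 and 1360 at 6 h. They were 1252, 1402 and 1395 at 24 h and 1427, 1328 and 1623 at 48 h. The OuJ arrays of every ozone time overlapped those in air.

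In HeJ the same probe set read 1187, 1872 and 1273 in air and 1558, 1492 and 2274 at 6 h. It read 4663, 4717 and 6445 at 24 h and 5572, 3692 and 4979 at 48 h. All 6 HeJ arrays at 24 and 48 h lay above every other array of the study. By limma the HeJ change was 1.87 ± 0.23 at 24 h (adjusted p = 2.4e-05, 3.65-fold in mean signal) and 1.71 ± 0.23 at 48 h (adjusted p = 4.2e-05, 3.29-fold). The OuJ change was 0.18 at 24 h (95% interval -0.29 to 0.65) and 0.29 at 48 h (-0.18 to 0.76), neither called. In the order of the 8 group means, neighbouring groups overlapped except where HeJ at 48 h, 12.20 ± 0.31 (SD, log2), stood above HeJ at 6 h, 10.78 ± 0.33.

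The dimmer elastin probe set gave another picture in OuJ. Its OuJ signals were 66.1, 68.1 and 107.9 in air, 356.7, 221.9 and 203.4 at 6 h, 532.8, 623.2 and 408.8 at 24 h, and 271.2, 448.8 and 479.8 at 48 h. Every OuJ array in ozone lay above all 3 in air. The OuJ air signals were below the filter value of 218.3, so changes from that group rest on low signals. With all kept probe sets fitted separately, it rose in OuJ by 2.48 ± 0.41 at 24 h (adjusted p = 0.00065, where 5.32% of 12866 probe sets were called) and by 2.09 ± 0.41 at 48 h (adjusted p = 0.0028, 6.68% called). At 6 h the OuJ change of 1.5 ± 0.41 did not pass (adjusted p = 0.13, where 0.14% of probe sets were called).

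In HeJ that probe set read 439.2, 419.5 and 108.4 in air, so 1 air mouse was near the highest of the OuJ air mice. It read 175.6, 230.4 and 550.8 at 6 h, 1664, 1332 and 2508 at 24 h, and 1518, 1073 and 935 at 48 h. The change was 2.62 ± 0.41 at 24 h (adjusted p = 0.0005, 6.56% of probe sets called) and 2.00 ± 0.41 at 48 h (adjusted p = 0.0028, 10.4% called). The HeJ rise at 24 and 48 h was thus called on both probe sets, while the OuJ rise was called on 1 of them. Over the 24 arrays the pair correlated at r = 0.82, a value that both strains and all exposures share.

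**Figure D2:**
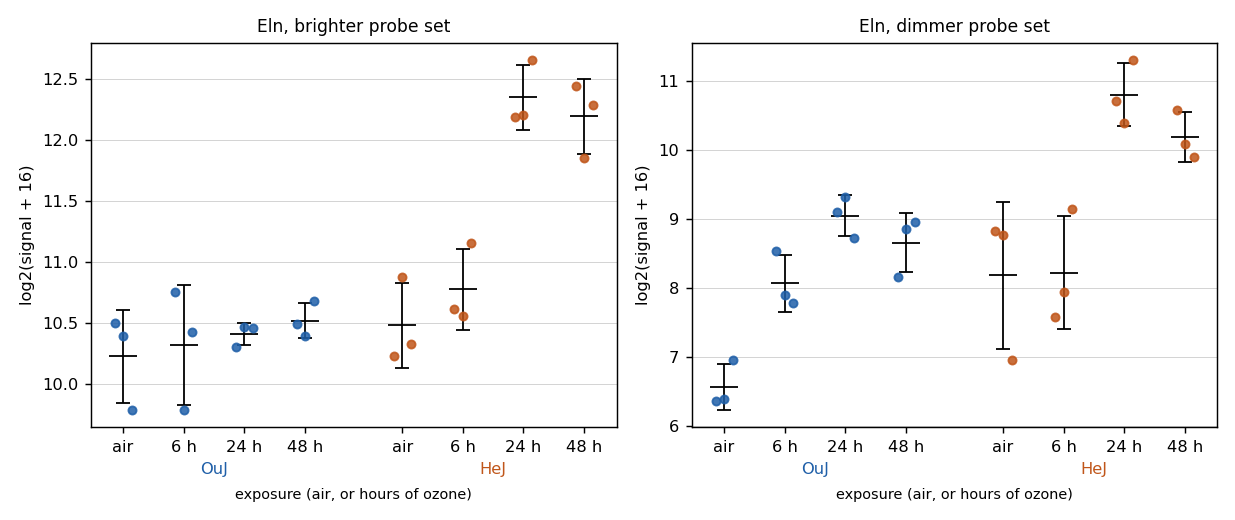
log2(signal + 16) of elastin in each array, by strain and exposure, for the brighter and the dimmer of its probe sets; points are mice, bars the mean ± SD of 3. On the brighter probe set the HeJ mice at 24 and 48 h stand above all other groups, while on the dimmer one the OuJ mice in air are the lowest group and rise with ozone.

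Lox encodes the oxidase that starts the cross-linking of elastin and collagen. Its signals in OuJ were 672, 925 and 500.2 in air, 1647, 946 and 2065 at 6 h, 1673, 1910 and 1773 at 24 h, and 1090, 989 and 1224 at 48 h. In OuJ every array in ozone lay above those in air, but the changes of 1.11, 1.37 and 0.68 at 6, 24 and 48 h did not pass. The OuJ change at 24 h was 1.37 ± 0.42, with an adjusted p of 0.053 in limma. It passed under median centring (1.44, adjusted p = 0.037) and when only the groups compared were fitted (adjusted p = 0.0047).

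HeJ mice had Lox signals of 989, 1084 and 707 in air, 789, 1230 and 5257 at 6 h, 6617, 4142 and 7086 at 24 h, and 2287, 1261 and 1614 at 48 h. At 24 h all 3 HeJ arrays stood above those in air, and Lox rose by 2.65 ± 0.42 (adjusted p = 0.00059, 6.42-fold). Without the 4 arrays whose codes carry a suffix (replicate 2 in air and at 6 h, replicates 1 and 3 at 24 h, all HeJ) that change was 2.29 and did not pass (adjusted p = 0.15); this leaves 1 HeJ array at 24 h and 2 in air, with the single array assumed to vary like the other groups. At 6 h the HeJ mice were spread: replicate 3 was near the 24 h level and the others within or near the range in air. On this probe set the HeJ change of 0.91 at 6 h was 0.11 without that mouse. On a second Lox probe set all 3 HeJ mice at 6 h (674.5, 973.6 and 4523.5) lay above those in air (369.5 to 413.9), a change of 1.83 ± 0.50 that did not pass (adjusted p = 0.27). The second probe set correlated with the first at r = 0.97 over the 24 arrays and rose in HeJ at 24 h by 3.42 ± 0.50 (adjusted p = 0.00024, 11.9-fold). Another Lox probe set lay below the filter.

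At 48 h the Lox level in HeJ was lower again. The 48 h arrays lay below all 3 of 24 h, and the difference of -1.78 ± 0.42 was called (adjusted p = 0.019), as 1 of 8 members, against 5.47% of all genes (438 genes, 104 to 647 with 1 array left out) in either direction and 2.85% lower. The call was lost without single arrays: without HeJ replicate 1 or 3 at 24 h, or HeJ replicate 2 or 3 at 48 h, the adjusted p rose to between 0.055 and 0.086. Without the arrays with a suffix, which leaves 1 HeJ array at 24 h, the difference was -1.3 (adjusted p = 0.67). The second probe set fell by 2.14 ± 0.50 (adjusted p = 0.016, where 5.85% of probe sets were called). From air to 48 h Lox changed in HeJ by 0.86 ± 0.42, with all 3 arrays above air (adjusted p = 0.21), and it passed when only the groups compared were fitted (adjusted p = 0.03). In OuJ the 48 h arrays also lay below those of 24 h, by -0.69 ± 0.42 (adjusted p = 0.73). In the order of the group means only HeJ at 24 h stood clear of its neighbour, OuJ at 24 h.

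Thbs1 encodes thrombospondin-1, a secreted glycoprotein known to bind matrix and to activate latent TGF-beta. By the main probe sets it was the member called in both strains at 24 and at 48 h. In OuJ its signals were 622, 670.2 and 936 in air, 1011, 1065 and 1227 at 6 h, 2331, 1538 and 2691 at 24 h, and 2023, 1952 and 3705 at 48 h. In HeJ they were 614, 540.0 and 511 in air, 718, 740 and 1009 at 6 h, 1663, 1920 and 1786 at 24 h, and 2203, 2146 and 1304 at 48 h. All 3 arrays stood above those in air in all 6 comparisons.

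Thbs1 rose in OuJ by 1.52 ± 0.23 at 24 h (adjusted p = 0.00026, 2.95-fold) and by 1.72 ± 0.23 at 48 h (adjusted p = 6.2e-05, 3.45-fold). In HeJ it rose by 1.66 ± 0.23 at 24 h (adjusted p = 0.0001, 3.22-fold) and by 1.70 ± 0.23 at 48 h (adjusted p = 5e-05, 3.4-fold). At 6 h the changes were 0.58 in OuJ (adjusted p = 0.35) and 0.54 in HeJ (adjusted p = 0.49). A second probe set correlated with it at r = 0.97 and was called in the same 4 comparisons, with changes of 1.21 to 1.52. In the order of group means, neighbours among the 4 groups at 24 and 48 h overlapped, and all 4 stood above OuJ at 6 h.

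**Figure D3:**
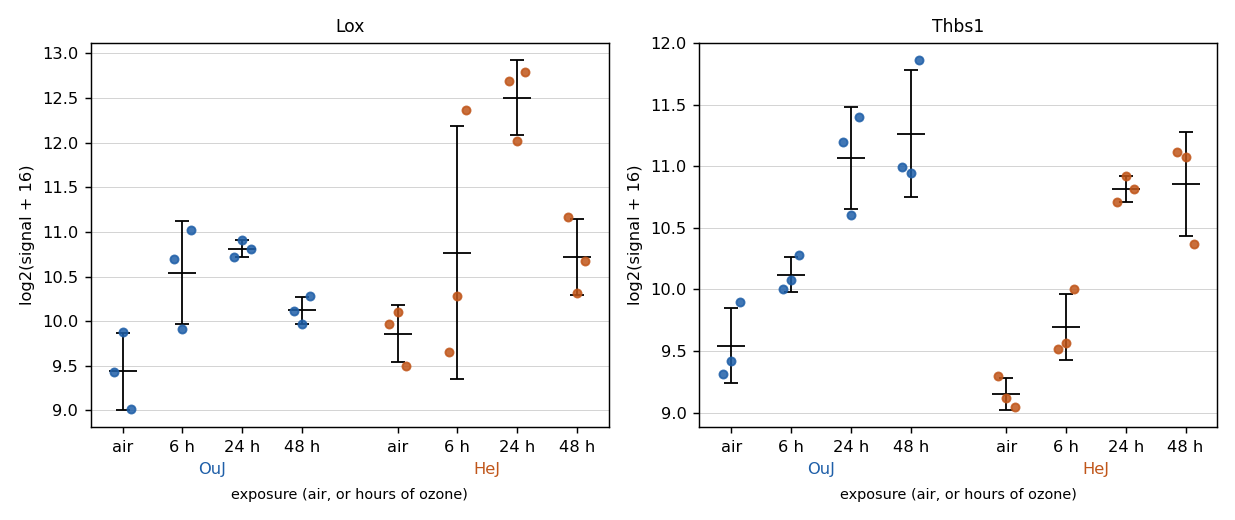
log2(signal + 16) of Lox and Thbs1 in each array by strain and exposure; points are mice, bars the mean ± SD of 3. Lox is highest in HeJ at 24 h with 1 HeJ mouse near that level at 6 h, and Thbs1 is higher at 24 and 48 h than in air in every mouse of both strains.

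Of the other oxidase, Loxl1, whose product is known for elastin upkeep, the mean signals were 1993 ± 426 in OuJ and 2093 ± 439 in HeJ air (SD, n = 3). Its changes under ozone ran from -0.24 to 0.18, with a lowest adjusted p of 0.57. The arrays in ozone overlapped those in air in all 6 comparisons.

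The fibulins are secreted glycoproteins that tie elastin to microfibrils and to cells. Fbln5, which elastic fibre assembly is known to need, had signals of 3589 ± 194 in OuJ air and 3149 ± 211 at 48 h, with all 3 OuJ arrays at 48 h below those in air (-0.19 ± 0.11, adjusted p = 0.33). In HeJ it went from 3421 ± 193 in air to 2846 ± 509 at 6 h, 2751 ± 250 at 24 h and 3146 ± 263 at 48 h. At 24 h all 3 HeJ arrays were below those in air, a change of -0.32 ± 0.11 that did not pass (adjusted p = 0.078). It passed in 1 of 240 runs over all comparisons and settings, without HeJ replicate 2 at 24 h (adjusted p = 0.045). By the main probe sets Fbln1 changed by -0.33 to 0.04 with a lowest adjusted p of 0.18, and Fbln2 by -0.18 to -0.04 with a lowest of 0.55. At 48 h in HeJ all 3 arrays of both genes lay below those in air, by -0.33 ± 0.15 for Fbln1 and -0.17 ± 0.16 for Fbln2, and neither passed. A second Fbln1 probe set correlated with the main one at r = 0.57. On it all arrays lay below air in OuJ at 48 h (-0.37) and in HeJ at 6 h (-0.42) and 48 h (-0.40), and none was called. Fbln1 was called in 0 of 252 runs and Fbln2 in 0 of 240.

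Mfap5, which encodes a microfibril-associated glycoprotein, changed by -0.27 to 0.28 from air, with a lowest adjusted p of 0.32. Its HeJ arrays at 48 h read 985, 965 and 987, a narrow range above all 3 of 24 h. That difference between the times, 0.47 ± 0.17, did not pass (adjusted p = 0.11). A second Mfap5 probe set correlated with the first at r = 0.35, so the pair follow each other loosely. On the second one the HeJ arrays at 48 h ran from 8.47 to 9.05 (log2) and overlapped those at 24 h, 8.3 to 8.68. The difference there was 0.22. From air to 48 h in OuJ the second probe set changed by 0.25 and the first by -0.18, and none of these was called.

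**Figure D4:**
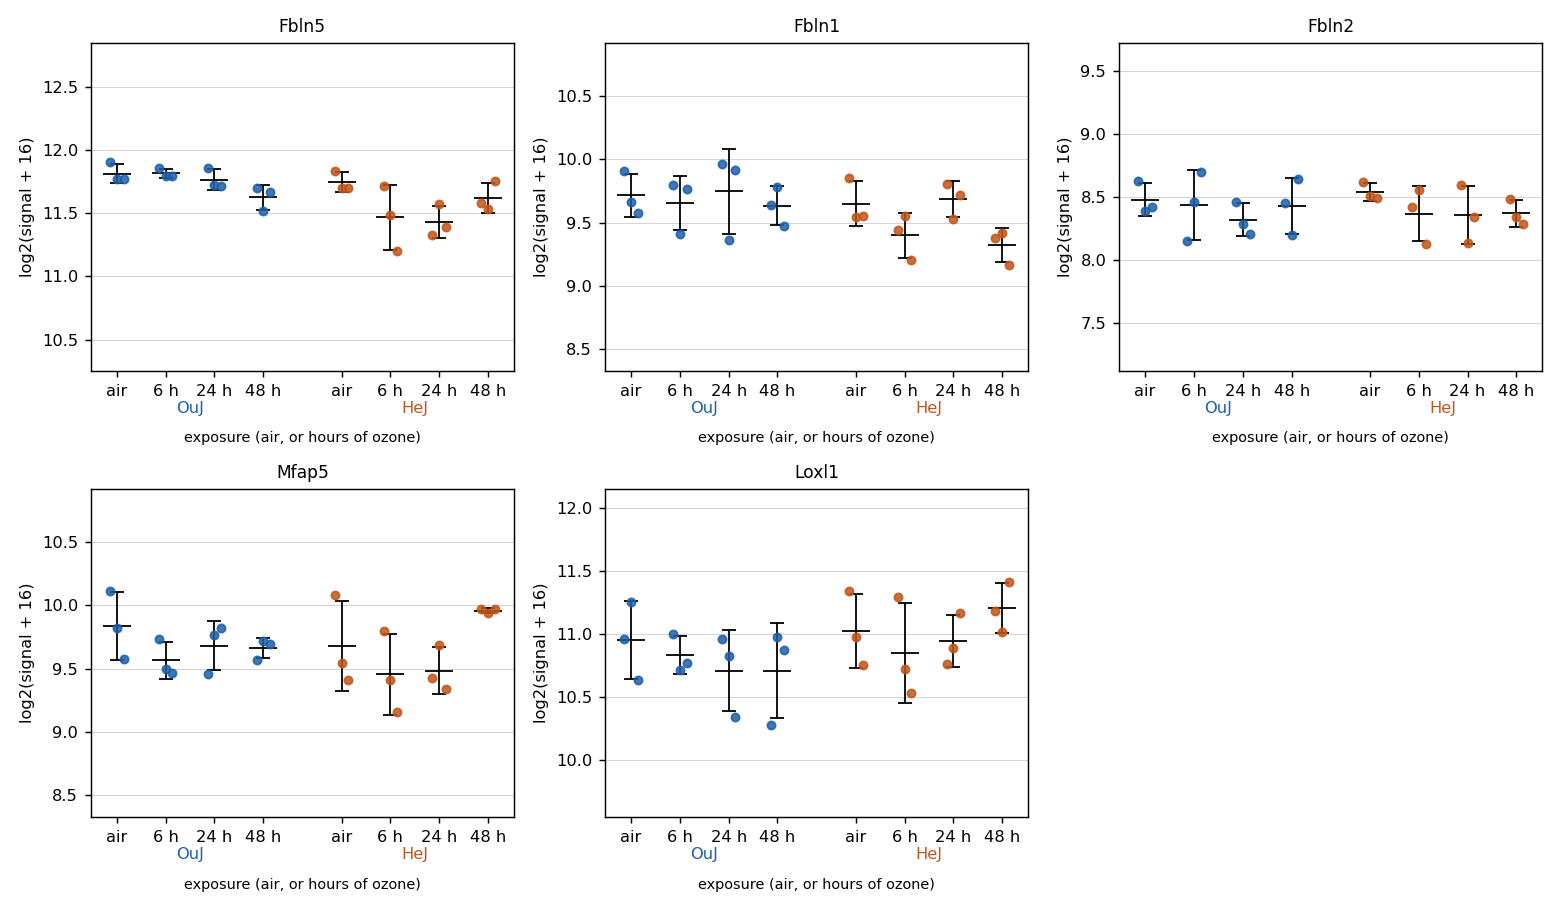
log2(signal + 16) of Fbln1, Fbln2, Fbln5, Loxl1 and Mfap5, each by its main probe set, in each array by strain and exposure. Points are mice, bars the mean ± SD of 3. The groups of each gene largely overlap, except that the mice lie wholly below those in air for Fbln5 in OuJ at 48 h and HeJ at 24 h and for Fbln1 and Fbln2 in HeJ at 48 h, and that the HeJ mice at 48 h are tightly grouped for Mfap5.

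The strain question was put to the difference of the ozone changes, OuJ minus HeJ. By limma no member was called at 6, 24 or 48 h, against 0.0125%, 0.0125% and 0% of all genes. At an unadjusted p under 0.05 there were by the main probe sets 0, 2 and 1 members among 461, 626 and 658 genes. The brighter elastin probe set came closest, at -1.69 ± 0.32 at 24 h (95% interval -2.35 to -1.02, unadjusted p = 2.6e-05, adjusted p = 0.10) and -1.42 ± 0.32 at 48 h (adjusted p = 0.16). It passed at 24 h without OuJ air replicate 3 (-1.91, adjusted p = 0.021) or HeJ air replicate 2 (-1.9, adjusted p = 0.038). On the dimmer probe set the same difference was -0.14 ± 0.58 at 24 h (-1.33 to 1.05) and 0.09 at 48 h. At 6 h it was 1.46 ± 0.58 on the dimmer probe set (0.27 to 2.65, unadjusted p = 0.018, adjusted p = 0.87) and -0.20 ± 0.32 on the brighter one.

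For Lox the difference at 24 h was -1.27 ± 0.60 (-2.51 to -0.03, adjusted p = 0.63). For Thbs1 it was -0.14 (-0.82 to 0.54) at 24 h and 0.02 (-0.65 to 0.70) at 48 h. These intervals leave room for moderate differences either way in Thbs1. In air no member was called between the strains by its main probe set, against 0.774% of all genes (62 genes, 19 to 59 with 1 array left out), and 0 members of 1138 genes had an unadjusted p under 0.05. The dimmer elastin probe set was lower in OuJ than in HeJ air by -1.62 ± 0.41 (adjusted p = 0.044, 1.67% of probe sets called), while the brighter one differed by -0.25 ± 0.23. All 3 OuJ and 1 of the 3 HeJ air arrays read the dimmer one below 218.3. The Gapdh 5' to 3' ratio also differed between these groups, with means of 0.843 and 0.558, and its part was not tested.

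Between 48 and 24 h in OuJ no member was called, against 0.15% of all genes (12 genes), and 0 members of 640 genes had an unadjusted p under 0.05. The brighter elastin probe set differed there by 0.11 and in HeJ by -0.16, with the arrays of both times overlapping. On the dimmer one the difference was -0.39 in OuJ and -0.62 in HeJ, also with overlapping arrays, and neither was called. Thbs1 differed by 0.20 in OuJ and 0.04 in HeJ, again with overlapping arrays, and Lox in HeJ was the call between these times. In HeJ 3 members among 1667 genes had an unadjusted p under 0.05: Lox, Mfap5 and Fbln1. Fbln1 differed there by -0.36 ± 0.15 (limma, adjusted p = 0.17), with all 3 arrays at 48 h below those at 24 h.

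By the main probe sets Eln and Lox correlated at r = 0.72 over the 24 arrays, Eln and Thbs1 at 0.35, and Lox and Thbs1 at 0.42. These arrays share strain and exposure groups, so the values are descriptions. In HeJ at 6 h replicate 3 was the highest of its group for Eln, Lox and Thbs1 and the lowest for Fbln1, Fbln2, Fbln5, Loxl1 and Mfap5. Its summed fibroblast marker signal, 44850, was also the lowest of the group, and the part of this in the values was not tested.

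Other genes of the elastic fibre and microfibril system came from a list of 29, of which 24 were tested. At 6 h none was called in either strain, and with 1 array left out 0 to 2 were in OuJ and 0 to 1 in HeJ. In OuJ 2 rose at 24 h, and 2 rose and 1 fell at 48 h. In HeJ 3 rose at 24 h, and 1 rose and 3 fell at 48 h. Of all genes 3.16% and 3.7% were called higher in OuJ at 24 and 48 h, and 3.15% and 5.67% in HeJ. Called lower were 3.41% and 4.21% in OuJ at 24 and 48 h, and 3.96% and 6.44% in HeJ. The median change of the list lay between -0.04 and 0.12 in the 6 comparisons. The OuJ count at 48 h was 0 without OuJ replicate 3 at 48 h and 1 without any other single array of those groups, and the HeJ count at 24 h was 1 without HeJ air replicate 2.

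Adamtsl4, whose product is known to bind fibrillin microfibrils, rose in OuJ by 0.75 ± 0.13 at 24 h (adjusted p = 0.00066) and 0.41 at 48 h, and in HeJ by 0.45 at 24 h and 0.66 at 48 h. Ltbp2, a latent TGF-beta binding protein family gene of microfibrils, rose in OuJ by 0.53 ± 0.10 at 24 h (adjusted p = 0.0014) and 0.42 at 48 h, and in HeJ by 0.49 at 24 h. Bgn, the proteoglycan biglycan, rose in HeJ at 24 h by 0.36. Falls were seen at 48 h: Mfap3 in OuJ by -0.31, and in HeJ the microfibril gene Mfap4 by -0.82 ± 0.16 (adjusted p = 0.0021), Ltbp4 by -0.47 and the proteoglycan gene Hspg2 by -0.46. In air Itgav, an integrin chain, was lower in OuJ by -0.62 ± 0.12 (adjusted p = 0.0097). It was the 1 call of 24 genes there, against 0.774% of all genes, and that count was 0 to 1 with 1 array left out. Between 48 and 24 h Mfap2 fell in HeJ by -0.47. It was the 1 call of 24 genes, against 5.47% of all genes in either direction and 2.85% lower. The HeJ count of 1 from 24 to 48 h was 0 without replicate 1 or 3 at 24 h or any of the 3 mice at 48 h, and 2 without replicate 2 at 24 h. Endothelial markers fell at 48 h too, with 0 called higher. In OuJ 3 of 7 were called lower against 4.21% of all genes, and in HeJ 5 of 7 against 6.44%. Their summed signal was 25390 to 29070 in OuJ air and 20260 to 22160 at 48 h, and 29910 to 31790 in HeJ air and 23420 to 25850 at 48 h. Their part in these falls was not tested.

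**Figure D5:**
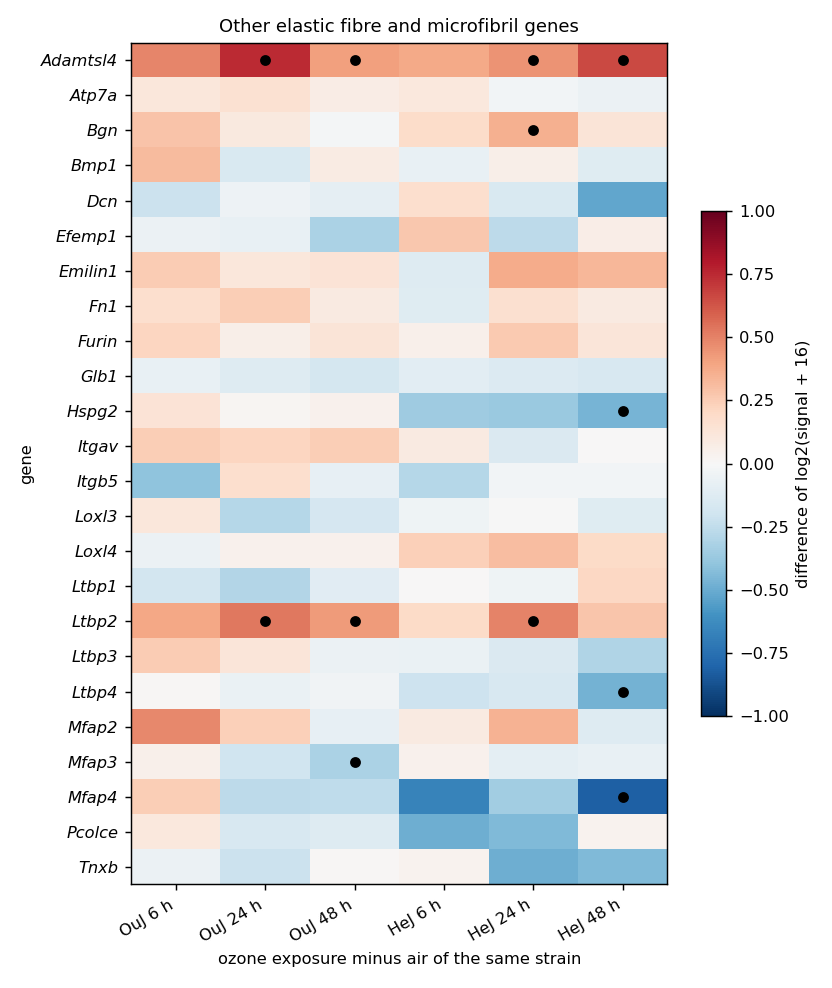
Heat map of the change from air (colour, difference of log2(signal + 16), red higher and blue lower) for the 24 tested genes of the elastic fibre and microfibril list, in rows, over the 6 ozone comparisons, in columns; a black dot marks a limma call, n = 3 arrays per group. Adamtsl4 is dotted at 24 and 48 h in both strains, Ltbp2 in 3 columns, and Mfap4, Ltbp4 and Hspg2 are the dotted falls in HeJ at 48 h.

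TGF-beta is known to drive matrix gene expression, and Thbs1 is known to activate it. Of 20 genes on a TGF-beta list 16 were tested, and at 6 h none was called. With 1 array left out the count at 6 h was 0 in OuJ and 0 to 1 in HeJ. In OuJ at 24 h 2 rose, the inhibitory regulators Smad7 (0.56) and Skil (0.72), and Tgfb2 fell (-0.64). At 48 h in OuJ Skil rose (0.81) and Tgfb2 (-0.55), Thbs3 (-0.73) and Cd36 (-0.49) fell. Tgfb2 signals were 263.7 to 309 in OuJ air, 159.6 to 199.3 at 24 h and 171.3 to 223.3 at 48 h. They ended near or below the filter value, so the Tgfb2 falls rest on low signals. In HeJ Thbs3, a thrombospondin gene, fell at 24 h (-0.90) and at 48 h (-1.27 ± 0.21, adjusted p = 0.00041), with Cd36 at 48 h (-0.48). Over all genes 6.57% and 7.9% were called in OuJ at 24 and 48 h, and 7.11% and 12.1% in HeJ. The list's median lay between -0.07 and 0.04. Of these counts the OuJ one at 48 h, 4 genes, was 1 or 2 without OuJ air replicate 2 or 3 or any of the 3 mice at 48 h, the HeJ one at 48 h, 2 genes, was 1 without HeJ air replicate 1 or 3 or HeJ replicate 1 or 2 at 48 h and 4 without replicate 3 at 48 h, and the HeJ one at 24 h, 1 gene, was 0 without HeJ air replicate 2 and 2 without HeJ replicate 2 at 24 h. Between 48 and 24 h in HeJ Tgfbr3, a co-receptor gene, fell by -0.87 (adjusted p = 0.023), as 1 of 16 genes against 5.47% of all genes. That call was lost without replicate 1 or 3 at 24 h or replicate 2 or 3 at 48 h.

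Elastin is degraded by certain metalloproteinases, cathepsins and neutrophil elastase, and the list of these with their inhibitors had 18 genes, of which 12 were tested. The protease genes Elane, Prtn3, Mmp7 and Mmp12 lay below the filter on low signals and were not tested. Timp1, an inhibitor of metalloproteinases, rose in OuJ by 2.47 at 24 h and 2.19 at 48 h and in HeJ by 2.52 and 3.06. Timp3, the matrix-bound inhibitor, rose at 24 h by 0.42 in OuJ and 0.57 in HeJ. Ctsk, cathepsin K, which cleaves elastin, rose in HeJ at 48 h by 1.45 ± 0.21 (adjusted p = 7.4e-05) and from 24 to 48 h by 0.85, where 2.62% of all genes were called higher. Serpinb1a fell in OuJ by -1.04 at 24 h and -1.07 at 48 h. Its signals were 203.9 to 235.2 in OuJ air, 69.7 to 159 at 24 h and 78 to 138.3 at 48 h. All OuJ arrays at 24 and 48 h thus read Serpinb1a below the filter value, and its falls rest on low signals. At 48 h in HeJ Mmp2 (-0.49) and Timp2 (-0.34) also fell, and from 24 to 48 h so did Mmp2 (-0.54) and Ctsl (-0.36). Over all genes 6.57% and 7.9% were called in OuJ at 24 and 48 h, 7.11% and 12.1% in HeJ, and 5.47% from 24 to 48 h in HeJ. The called counts of the list moved by over 1.5 times without some single arrays. The OuJ counts were 3 at 24 h and 2 at 48 h, and each was 1 without either of 2 air mice or either of 2 mice at that time. These were OuJ air replicates 1 and 2 with replicates 1 and 3 at 24 h, and OuJ air replicates 1 and 3 with replicates 2 and 3 at 48 h. The HeJ count of 4 at 48 h was 2 without HeJ air replicate 2 or HeJ replicate 3 at 48 h. The HeJ count of 3 from 24 to 48 h was 0 without replicate 3 at 24 h or 2 at 48 h, 1 without replicate 1 at 24 h or 3 at 48 h, and 5 without replicate 2 at 24 h.

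In HeJ the summed smooth muscle marker signal was above air in all arrays at 24 and 48 h, and 2 of 6 markers were called. No fibroblast marker was called higher than in air. The summed signal of 6 smooth muscle markers (2 of 8 listed, Myocd and Lmod1, lay below the filter) was 4562 to 6584 in HeJ air, 7051 to 8898 at 24 h and 7759 to 9253 at 48 h. In OuJ it was 4581 to 6566 in air, 5983 to 6337 at 24 h and 5367 to 7452 at 48 h. In HeJ 2 of the 6 rose at each of these times, Acta2, smooth muscle actin, by 0.85 ± 0.15 at 24 h (adjusted p = 0.0017) and 0.98 ± 0.15 at 48 h (adjusted p = 0.00024), and Actg2 by 0.76 and 0.51. None of the 6 was called in OuJ, or for the strain difference of the changes. Of all genes 3.15% were called higher in HeJ at 24 h and 5.67% at 48 h. Acta2 had the highest signal of the 6 (median 2937). Of 13 fibroblast markers tested, 0 rose at 24 and 48 h in either strain. In OuJ 1 fell at each time, against 3.41% and 4.21% of all genes called lower. In HeJ 1 fell at 24 h and 2 at 48 h, against 3.96% and 6.44%. At 6 h 1 of the 13 fell in HeJ, against 0.0375% of all genes (3 genes) called, and 0 in OuJ. The summed fibroblast signal in HeJ was 50270 to 53970 in air and 44850 to 49980 at 6 h, wholly below air. It was 43550 to 50530 at 24 h and 43150 to 53320 at 48 h. The summed signal of 5 platelet markers was 2324 to 2664 in OuJ air, 1849 to 1942 at 24 h and 1908 to 2273 at 48 h. In HeJ it was 2466 to 3017 in air, 2415 to 3020 at 24 h and 2078 to 2491 at 48 h. Of 8 airway cartilage markers 7 lay below the filter, with Col2a1 between 5.1 and 22.5 and Acan between 95.5 and 233.4; the one tested, Col9a1, read 43.7 to 283.5 and was not called. The part of any of these cell types in the members' values was not tested.

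By Pearson r over the 24 arrays, the genes most like Eln on its brighter probe set were Itga7 (0.88), Niban2 (0.87), Plin2 (0.85), Mmp14 (0.83) and Ybx3 (0.83). The dimmer elastin probe set correlated with the brighter one at 0.82, below each of these values, and no such list was made for it. Those most like Thbs1 were Lrrk2 (0.90), Hspa8 (0.90), Noct (0.89), Rhou (0.89) and Ube2f (0.89). For Lox, added after its values were seen, they were Cdkn1a (0.93), Peg3 (0.92), Adm (0.87), Col4a1 (0.87) and Adamts15 (0.86). All arrays share the same strain and exposure groups, so these values describe likeness of pattern. Adm lay above the filter value only in HeJ at 24 h, with signals of 353.1, 232.7 and 545.2. It was thus tested only through the group where Lox was highest, so its likeness to Lox is partly set by the filter. Noct lay above the filter value only in ozone arrays of 24 and 48 h, so the same limit holds for its likeness to Thbs1.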

How the data were processed

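The authors deposited linear signal intensity values from GCOS 1.4, per the submitters' processing notes, with settings not stated in them. Trimmed by 2% at both ends, the array means were 500.14 to 500.17. Each group holds 3 mice, numbered in the labels as biological replicates.

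Values were analysed as log2(signal + 16). A probe set was kept if it exceeded 218.3, the overall median, on 3 arrays or more, and for each gene the one with the highest mean was used, giving 8008 genes. 20380 probe sets carried 1 gene name and 691 several, which were not named. A limma 3.58.1 model (R 4.3.3; package data.table, version 1.17.8) with 1 mean per group and a trended prior gave 12 comparisons, two-sided, each adjusted by Benjamini-Hochberg. Comparisons with air in a strain share its 3 air arrays. Sequences are not shown.

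All listed members were named. Of each pathway list the called genes were named, at most 4 per comparison by smallest p. The 5 nearest genes were named for Eln and Thbs1. Members and lists were chosen with earlier results of these data known. Alternatives covered normalization, pseudocount, filter, probe set choice, model, replicate block, the arrays with a suffix and each array left out. The fit of the second probe set was added after seeing the data. The test was checked on simulated data.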

Additional observations from a re-analysis of the deposited data

How the results depend on the processing

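The count of members called did not move in most settings. In OuJ at 24 h it was 1, and 2 under median centring, with the mean of probe sets and with only the groups compared fitted. In OuJ at 48 h it was 1, and 2 with the mean of probe sets. For HeJ at 48 against 24 h it was 1, and 0 without the arrays with a code suffix, a setting that leaves 1 HeJ array at 24 h. In HeJ at 24 h it was 3, and 2 in that setting, and at 48 h it was 2, and 3 with only the groups compared fitted; both moves were of Lox. Leaving out each array in turn gave 0 to 1 for the strain difference at 24 h, 0 to 1 for HeJ at 48 against 24 h, and 3 to 4 for HeJ at 24 h. With the mean of probe sets Eln was called in OuJ at 24 h (1.33, adjusted p = 0.0036) and at 48 h (1.19, adjusted p = 0.0073). Of the single genes' values, 11 gained and 6 lost their call and none changed sign while called.

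With the replicate number as a block, 1 member was called in OuJ and 3 in HeJ at 24 h, 1 and 2 at 48 h, and no count of members moved. Mice that share a number deviated together at r between -0.08 and 0.20, and in no comparison were all 3 pairs over 0.1. For HeJ at 48 h against air 2 of the 3 pairs were over 0.1. Mice of different numbers were not set against each other in this way, so a weak pairing cannot be told from none. Without the 4 arrays with a suffix the genes called in HeJ at 24 h were 41 in place of 569, from 1 array at 24 h and 2 in air. For each comparison the cause was not tested.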
